A study of Mus musculus with 24 samples.

Results

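Mature miRNAs were compared between livers of mice on a high-fat diet (HFD) that also received HQHF and livers of mice on a normal diet. HQHF stands for Huatanqushihuoxue Formula, a herbal medicine that the study gave by gavage. The members are 6 small RNA libraries of the 12 small RNA libraries and 24 libraries in the series. They are replicates 1, 2 and 4 of the HFD + HQHF group and replicates 1, 3 and 4 of the normal diet group. The remaining library of each group, HFD + HQHF 3 and normal diet 2, was left out because its miR-122-5p, the dominant miRNA of liver cells, was under 1000 CPM, where CPM are counts scaled to a common library size. It was at 134 and 316 CPM there, and between 333065 and 548311 CPM in the other 10 small RNA libraries. The level of miR-122-5p therefore chose the members and is described here without a test.

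All mice were male C57BL/6 mice labelled as wild type, and the study describes diet-induced metabolic fatty liver (MAFLD). HFD and HFD + HQHF mice ate the high-fat diet, for 12 weeks before HQHF began. Which of the 3 doses of HQHF in the study these mice received is not stated in the labels. The study had 9 mice per group. HFD + HQHF differs from normal diet in both diet and formula, and these cannot be told apart in this comparison. The 4 libraries of the HFD group, which ate the diet without the formula, are therefore set beside it. Each mouse carries a batch code of its own, so a batch cannot be told apart from a mouse.

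A mature miRNA is cut from an arm of a hairpin in a longer transcript. It guides Argonaute proteins to messenger RNAs that pair with its seed, the bases from position 2 to position 8 counted from its 5′ end. Such pairing lowers the stability and translation of the target. In the liver, miR-122 is nearly specific to hepatocytes, the miR-192 and miR-194 hairpins are also rich in them, and miR-34a, miR-33 and miR-21 are known from work on fatty liver.

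Small RNA totals ran from 8644573 to 9016101 counts in HFD + HQHF and from 8139111 to 9714451 counts in normal diet. The table listed 1291 entries, of which 406 passed the filter on low counts, 403 of them named mouse miRNAs. These 406 held at least 99.9% of the counts of every library, so the others are rare. The values below are CPM on library sizes scaled by TMM, a factor that makes the bulk of miRNAs comparable. They are relative levels, and in whole liver fewer cells of a type and less RNA per cell cannot be told apart. In the 6 libraries, the 10 most abundant miRNAs took 74.6% to 79.5% of the counts. By itself miR-122-5p took 48.7%, 50.6% and 51.2% in HFD + HQHF 1, 2 and 4 and 46.6%, 54.8% and 49.5% in normal diet 1, 3 and 4, so the groups overlapped. In the HFD libraries its share was between 33.3% and 48.4%. The p-values measure the spread between mice as labelled.

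The sequences of the miRNAs that the results turn on are from RefSeq (GRCm38.p6), where 348 of the 403 named miRNAs were found. Seeds are in capitals. The first set is the 5 miRNAs that passed the test, and no seed is shared between them.
miR-574-3p: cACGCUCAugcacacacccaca
miR-350-3p: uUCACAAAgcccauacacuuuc
miR-674-5p: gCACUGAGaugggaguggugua
miR-484: uCAGGCUCaguccccucccgau
miR-132-5p: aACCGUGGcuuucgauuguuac
The second set is miRNAs of hepatocytes, lipid handling and fatty liver whose 3 groups are set side by side below.
miR-34a-5p: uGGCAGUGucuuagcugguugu
miR-33-5p: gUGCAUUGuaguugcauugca
miR-192-3p: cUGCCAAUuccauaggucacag
miR-26a-5p: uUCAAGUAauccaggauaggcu
The third set shows the shared seeds of the miR-181 and miR-29 families, whose members lay on the same side of 0.
miR-181a-5p: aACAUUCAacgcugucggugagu
miR-181d-5p: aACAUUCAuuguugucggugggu
miR-29a-3p: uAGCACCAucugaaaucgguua
miR-29c-3p: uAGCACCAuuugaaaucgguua

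The main comparison asks which miRNAs differ between livers after diet and formula and livers on normal diet. Of 406 miRNAs, 5 passed the test (1.23%), edgeR's quasi-likelihood test with a Benjamini-Hochberg adjusted p under 0.05. Higher in HFD + HQHF were 3 of them (0.739%), miR-574-3p, miR-674-5p and miR-350-3p, and lower were 2 (0.493%), miR-484 and miR-132-5p. The median log2 fold change of all 406 was -0.03, with 195 above 0 and 211 below.

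The hairpin of miR-574-3p lies on chromosome 5 within the span and on the strand of Fam114a1. It was at 90.5, 85.8 and 83.5 CPM in HFD + HQHF 1, 2 and 4 and at 38.3, 36.8 and 34.6 CPM in normal diet 1, 3 and 4. Every HFD + HQHF library lay above every normal diet library, by more than the whole range within either group. miR-574-3p rose by 1.24 ± 0.20 on the log2 scale (SE, n = 3 and 3, edgeR adjusted p = 0.0360).

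The hairpin of miR-350-3p lies on chromosome 1 within the span and on the strand of Cep170, a gene for a centrosomal protein. Its level was 83.5, 103 and 95.0 CPM in the HFD + HQHF libraries against 48.5, 47.9 and 47.0 CPM in the normal diet libraries. The groups did not overlap and the normal diet libraries were nearly alike. The log2 fold change was 0.98 ± 0.16 (edgeR adjusted p = 0.0360).

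From the hairpin of miR-674 on chromosome 2, the 5p arm was at 27.1, 29.3 and 30.5 CPM with HFD + HQHF and at 13.0, 15.4 and 10.8 CPM with normal diet. All 3 treated libraries were high, and the lowest was above the highest normal diet library. miR-674-5p rose by 1.15 ± 0.21 on the log2 scale (edgeR adjusted p = 0.0439).

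Among the lower miRNAs, miR-484, from chromosome 16, was at 4.32, 3.44 and 4.12 CPM with HFD + HQHF and at 9.90, 7.43 and 13.6 CPM with normal diet. The groups did not overlap, and the normal diet libraries were the more spread. Its log2 fold change was -1.38 ± 0.27 (edgeR adjusted p = 0.0451). These levels are low, 34, 25 and 32 counts against 76, 51 and 106.

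The 5p arm of miR-132, whose other arm is induced by CREB in neurons and immune cells, comes from chromosome 11. It was at 0.89, 1.10 and 0.90 CPM with HFD + HQHF and at 3.91, 3.35 and 6.41 CPM with normal diet. All 3 treated libraries lay below all normal diet libraries, and they held only 7, 8 and 7 counts against 30, 23 and 50. The log2 fold change of miR-132-5p was -2.23 ± 0.42 (edgeR adjusted p = 0.0439).

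**Figure D1:**
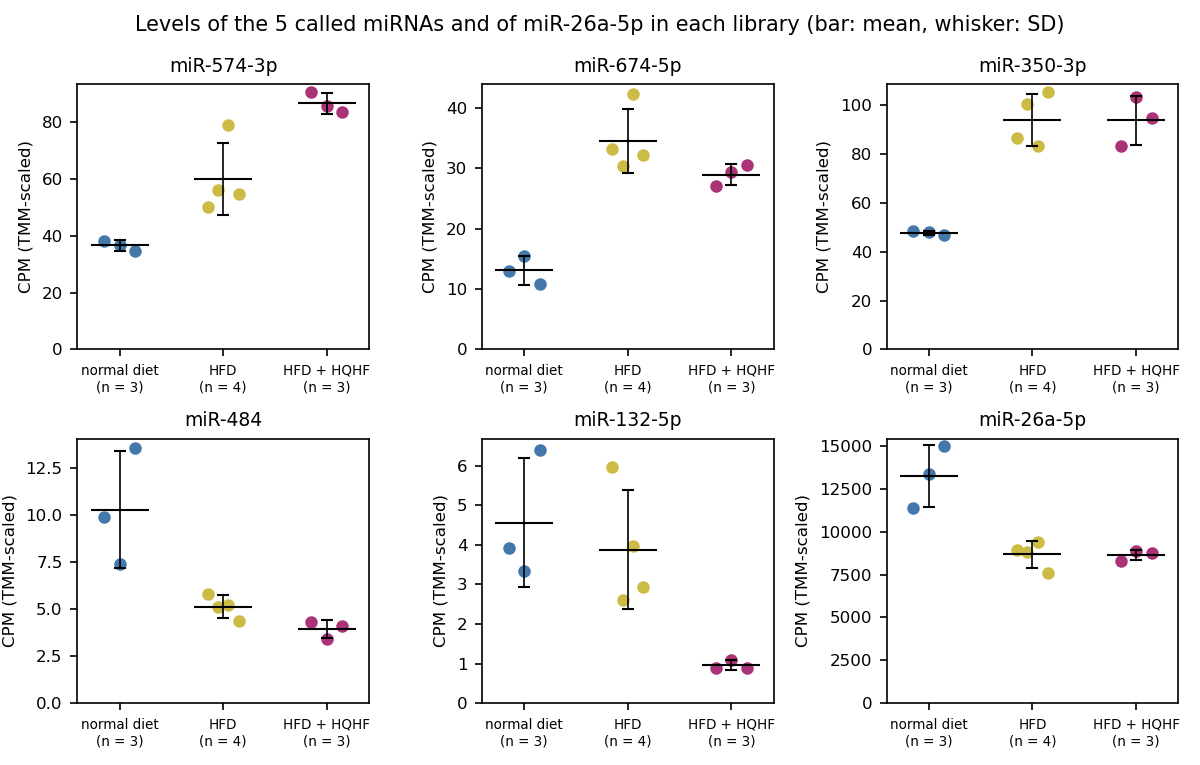
Levels in CPM on TMM-scaled libraries (y axis, linear from 0) of the 5 miRNAs that passed the test and of miR-26a-5p, in 3 normal diet, 4 HFD and 3 HFD + HQHF libraries. Points are libraries, long bars are means and whiskers are SD; in each panel the HFD + HQHF points do not overlap the normal diet points.

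These 5 calls stand close to the threshold. Leaving out any 1 of the 6 libraries, normal diet 1, 3 or 4 or HFD + HQHF 1, 2 or 4, left 0 miRNAs called in each case, with edgeR adjusted p of these 5 from 0.0520 to 0.209 and the same directions. With only the 6 libraries in the fit, so that the HFD libraries did not enter the estimate of the spread, 60 were higher and 52 lower. The same call rule with DESeq2 gave 26 higher and 29 lower, and leaving HFD 3 out of the fit gave 20 and 22. With all 12 libraries the count was 0, and the log2 fold changes were 0.92 for miR-574-3p, 0.92 for miR-350-3p, 1.07 for miR-674-5p, -1.35 for miR-484 and -1.77 for miR-132-5p (edgeR adjusted p from 0.142 to 0.182). At an unadjusted p under 0.05 there were 119 (29.3%), 60 higher (14.8%) and 59 lower (14.5%). An exact permutation test of 3 against 3 libraries cannot give a p below 0.1, so single values have no stronger test here.

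With the called miRNAs included, the libraries of the groups did not overlap for 181 of the 406 miRNAs (44.6%). Of these, 87 were higher (21.4%) and 94 lower (23.2%) in HFD + HQHF. At an adjusted p under 0.1 there were 54 (13.3%), 28 higher (6.9%) and 26 lower (6.4%). Both counts include the 5 called miRNAs. The others are described by their values and did not pass the test. Nearest to the threshold was miR-26a-5p, which is encoded within both Ctdspl and Ctdsp2. It was at 8312, 8886 and 8728 CPM with HFD + HQHF and at 11401, 13331 and 15004 CPM with normal diet, without overlap. Its log2 fold change was -0.62 ± 0.13 (edgeR adjusted p = 0.0514). It was the most abundant of the miRNAs with an adjusted p under 0.1 apart from miR-29c-3p and let-7c-5p.

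On the higher side, miR-28a-3p was at 116, 112 and 108 CPM against 66.1, 77.9 and 62.4 CPM (log2 fold change 0.70, edgeR adjusted p = 0.0575). The libraries of miR-532-5p were the closest to each other, with 193.2 CPM as the HFD + HQHF mean and an SD of 0.298, against 130.3 ± 4.14 CPM (0.57, edgeR adjusted p = 0.0743). Neither overlapped between the groups. On the lower side, miR-455-5p, encoded within the collagen gene Col27a1, was at 146.4, 149 and 127 CPM against 263, 303 and 397 CPM (-1.19, edgeR adjusted p = 0.0743). The arm miR-29a-5p was at 11.2, 11.4 and 12.1 CPM against 17.1, 23.3 and 28.8 CPM (-0.995, edgeR adjusted p = 0.0743). Both lay lower in every treated library.

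**Figure D2:**
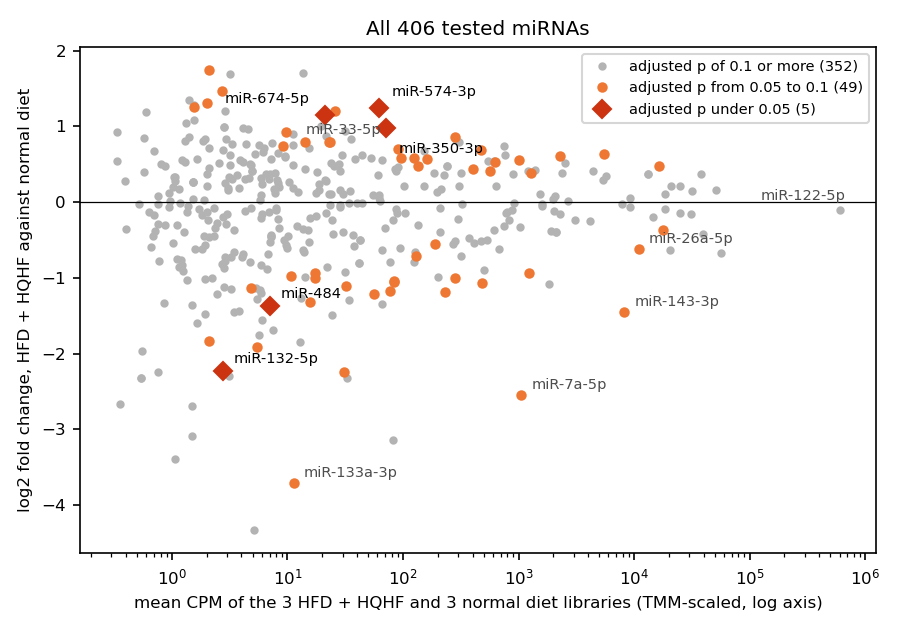
Log2 fold change of HFD + HQHF against normal diet (y axis) by mean CPM of the 6 libraries (x axis, log scale) for all 406 tested miRNAs. Diamonds mark the 5 with an adjusted p under 0.05, orange points the 49 from 0.05 to 0.1, and grey points the other 352; miR-122-5p, which chose the libraries, lies at the far right near 0.

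Next, the miRNAs were read by what they are known for. Among 8 counted hepatocyte miRNAs, the list without miR-122-5p, 0 passed the test and the median log2 fold change was 0.15, with 5 above 0 and 3 below. The main arm miR-192-5p was at 53210, 57039 and 50320 CPM with HFD + HQHF and at 41451, 55618 and 46692 CPM with normal diet, so the groups overlapped (0.16 ± 0.21, edgeR adjusted p = 0.663). Its partner miR-192-3p was at 583, 590 and 569 CPM against 341, 420 and 319 CPM, without overlap (0.69 ± 0.20, adjusted p = 0.0743). miR-194-5p, likewise rich in hepatocytes, was at 0.21 (adjusted p = 0.556, edgeR). Below 0 were both arms of miR-148a and miR-122-3p. miR-148a-5p was at 4.45, 2.62 and 3.73 CPM against 3.78, 6.55 and 14.5 CPM, with overlap (-1.20, edgeR adjusted p = 0.169). Without overlap, miR-148a-3p was at -0.63 and miR-122-3p at -0.71 (adjusted p = 0.227 and 0.183, edgeR).

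In the list for steatosis and lipid metabolism 0 of 19 passed, with a median of 0.26, 12 above 0 and 7 below. The groups did not overlap for 9 higher and 4 lower members of the 19, where the shares over all 406 miRNAs were 21.4% and 23.2%. The 4 lower ones were miR-143-3p at -1.45, miR-21a-5p at -0.67, miR-378a-3p at -0.62 and miR-103-3p at -0.38 (edgeR adjusted p = 0.0809, 0.222, 0.335 and 0.120). miR-33-5p, which lies within Srebf2 and lowers the cholesterol exporter ABCA1, was at 38.2, 36.6 and 33.3 CPM with HFD + HQHF and 15.4, 14.7 and 17.0 CPM with normal diet. The lowest treated library was well above the highest normal diet library, and yet the test was not passed (1.20 ± 0.29, edgeR adjusted p = 0.0743). miR-30c-5p, known to lower the lipoprotein assembly protein MTTP, was at 6129, 7533 and 6197 CPM against 4024, 5064 and 3752 CPM, again without overlap (0.63 ± 0.16, adjusted p = 0.0743). The p53 target miR-34a-5p was at 824, 701 and 1283 CPM against 551, 510.97 and 612 CPM (0.75 ± 0.28, adjusted p = 0.120). The groups of miR-34a-5p did not overlap either, and HFD + HQHF 4 was its highest library. miR-802-5p, linked to insulin resistance in obese mice, was at 0.37 (adjusted p = 0.563) with overlapping groups.

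Of 16 immune cell miRNAs 0 passed, the median was 0.00, and 8 lay on each side of 0. At an unadjusted edgeR p under 0.05 there were 2 higher and 3 lower, where all 406 miRNAs had 14.8% and 14.5%. The smallest p were those of miR-511-3p at -1.16 and miR-132-3p at -0.99 (edgeR adjusted p = 0.108 each). The other arm of miR-511, miR-511-5p, went the other way at 0.59 (edgeR adjusted p = 0.163). The arms of miR-142a also had opposite signs, at -1.08 for 3p and 0.41 for 5p (edgeR adjusted p = 0.139 and 0.415). miR-223-3p, a miRNA of neutrophils and other myeloid cells, was at 967, 944 and 856 CPM with HFD + HQHF and 679, 609 and 515 CPM with normal diet. Its groups did not overlap (0.62 ± 0.23, edgeR adjusted p = 0.120). miR-155-5p, induced in activated macrophages and lymphocytes, was at 18.4, 29.5 and 17.0 CPM against 58.2, 27.2 and 37.7 CPM (-0.92, adjusted p = 0.320), with overlap. miR-21a-5p, the second most abundant miRNA in each normal diet library but not in HFD + HQHF 1 and 2, was at 43097, 33010 and 53640 CPM against 63336, 61231 and 81893 CPM (-0.67 ± 0.34, adjusted p = 0.222). All 3 treated libraries were below the normal diet libraries, and they were themselves widely spread.

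Of 15 miRNAs in the stellate cell and fibrosis list 0 passed, with a median of 0.15, 8 above 0 and 7 below. Those furthest below 0 were miR-214-3p, a mesenchymal miRNA, at 1.52, 1.51 and 3.86 CPM against 7.56, 5.10 and 13.3 CPM (-1.91, edgeR adjusted p = 0.0743), and miR-143-3p, a smooth muscle miRNA picked from its values and not by the naming rule, at -1.45 (adjusted p = 0.0809). miR-100-5p followed at -1.17 (edgeR adjusted p = 0.0743). The miR-29 family, which targets collagens, lay above 0 in all 3 members, at 0.48 for miR-29c-3p, 0.41 for miR-29b-3p and 0.15 for miR-29a-3p. The edgeR adjusted p was 0.0889 for miR-29c-3p and 0.511 for miR-29a-3p. Endothelial miRNAs had a median of 0.13 over 4, and those of red blood cells -0.40 over 4, with 0 passing in either list.

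In the miR-200 family of epithelial and biliary cells 6 of 7 members lay below 0, with a median of -0.79 and 0 past the test. Summed, the family was at 425 to 549 CPM of the library total with HFD + HQHF and 565 to 1149 with normal diet, highest in normal diet 1. In HFD the sums ran from 397 to 8908. miR-141-3p was at 30.8, 32.8 and 32.1 CPM of the total against 150, 30.9 and 64.4, with overlap on this scale. Its log2 fold change on TMM-scaled libraries was -1.35 (edgeR adjusted p = 0.490). On the TMM scale 6 of the 7 members were lower without overlap, against 23.2% of all 406 miRNAs. The 3 tested members of the miR-183 cluster also lay below 0 (median -0.86, 0 past the test), with miR-96-5p at 10.4, 9.91 and 12.2 CPM against 30.4, 62.3 and 61.2 CPM (-2.24, edgeR adjusted p = 0.0903). The miR-181 family, active in lymphocyte development, had 4 of 4 members below 0 (median -1.27, 0 past the test). Of these, miR-181a-5p was at 18.3, 23.96 and 18.3 CPM against 41.6, 26.6 and 62.5 CPM, and miR-181d-5p at 1.02, 0.83 and 0.90 CPM against 2.21, 3.20 and 4.48 CPM (-1.11 and -1.84, adjusted p = 0.0743 each). In both, normal diet 1, 3 and 4 were all higher than the treated libraries.

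Of the larger families, let-7 had 8 of 9 members below 0 by small amounts (median -0.25, lowest -0.55, 0 past the test), although the family holds 2 of the 10 most abundant miRNAs. The miR-15 and 16 family had a median of 0.27 over 6, the miR-30 family 0.21 over 7, the miR-23, 27 and 24 clusters 0.04 over 7, and the miR-17-92 and paralogous clusters -0.50 over 13, again with 0 past the test in each. Within the miR-17-92 clusters the signs were mixed: miR-19a-3p was at 0.86, miR-25-3p at 0.39 and miR-92a-3p at -1.002 (edgeR adjusted p = 0.0765, 0.0743 and 0.0837), and 9 of 13 members were below 0. The imprinted Dlk1-Dio3 cluster had 26 of its 43 listed entries in the test, a median of 0.26, 15 above 0 and 0 past the test. Summed, it was at 75.4, 48.7 and 248 CPM of the library total in HFD + HQHF 1, 2 and 4. In normal diet the sums were 48.6 to 170, so only HFD + HQHF 4 was above them. Without overlap between the groups were 0 higher and 1 lower of the 26, against 21.4% and 23.2% of all 406 miRNAs. In the miR-34 family 3 were tested, and only miR-34a-5p was above 0 (median -1.36).

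**Figure D3:**
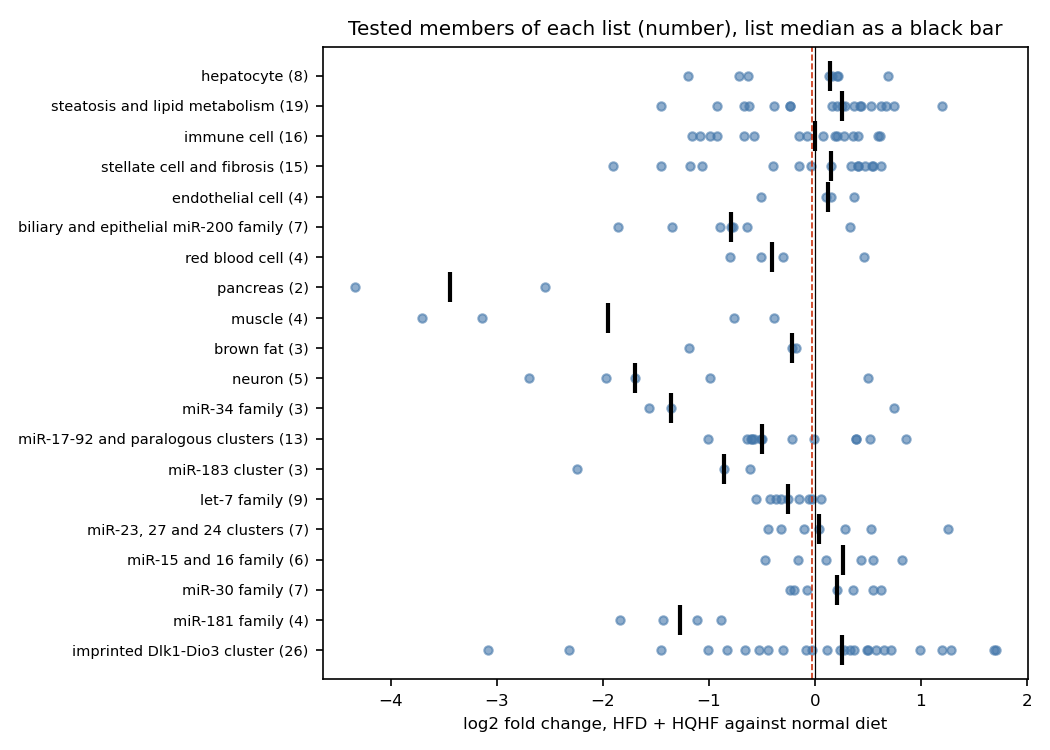
Log2 fold changes of HFD + HQHF against normal diet (x axis) for the tested members of 20 lists (rows, number of members in brackets). Each point is a miRNA, the black bar is the list's median and the dashed line is the median of all tested miRNAs, -0.03; the medians of the pancreas, muscle, neuron, miR-34 and miR-181 lists are below -1.

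The 3 lists with the lowest medians, pancreas, muscle and neuron, stand for other tissues. The acinar and muscle miRNAs also differed between the normal diet libraries. The pancreas list had 2 of 6 members tested (median -3.44). miR-216a-5p and miR-217-5p, which mark acinar cells, had 132.1 and 33.1 CPM of the library total in normal diet 1. They were at most 0.824 and 0.618 CPM in the other 5 of the 6 libraries, so normal diet 1 alone was high. miR-375-3p, of islets and gut, was at 27.5 CPM in normal diet 1 and at most 1.28 CPM in normal diet 3 and 4 and 0.51 CPM in the treated libraries (-4.33, edgeR adjusted p = 0.267). The summed level of the list was 242 to 292 CPM of the total with HFD + HQHF and 1269 to 1939 with normal diet, nearly all of it miR-7a-5p.

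miR-7a-5p, abundant in endocrine cells and neurons, was at 320, 321 and 280 CPM with HFD + HQHF and 1851, 1998 and 1533 CPM with normal diet. Unlike the acinar miRNAs it was high in each normal diet library, and the groups were far apart (-2.55 ± 0.71, edgeR adjusted p = 0.0743). In HFD 1 to 4 it was at 992, 1141, 1380 and 107 CPM, so the last was below the treated libraries.

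The muscle list had a median of -1.95 over 4 tested members of 8, with miR-208a-3p and miR-208b-3p, which mark heart, at 0 counts in the 6 libraries. miR-1a-3p was at 12.6, 23.8 and 13.5 CPM against 297, 20.1 and 121.98 CPM, and miR-133a-3p at 2.41, 0.83 and 1.54 CPM against 43.0, 3.35 and 16.8 CPM. Normal diet 1 and 4 were high in both, and normal diet 3 was near the treated libraries (-3.14 and -3.71, edgeR adjusted p = 0.104 and 0.0765). Summed, the list was at 13.98 to 22.1 CPM of the total with HFD + HQHF and 18.6 to 324 with normal diet. The neuron list had a median of -1.69 over 5, with miR-124-3p at 0 counts in the 6 libraries. Its sums were 121 to 174 against 229 to 273 CPM of the total. Most of each sum was miR-137-3p, at 119, 96.1 and 139 CPM of the total against 204, 210 and 244. The brown fat list had a median of -0.22 over 3, the value of miR-365-3p, and its lowest member was miR-455-5p at -1.19. Its sums were 326 to 405 against 453 to 626 CPM of the total. The smooth muscle miRNA miR-143-3p was at 4378, 4438 and 4346 CPM against 18546, 5708 and 11671 CPM. Its normal diet libraries had the same order as those of miR-1a-3p and miR-133a-3p. The part of other tissues in the lower miRNAs was not tested. Without normal diet 1 the log2 fold changes were 1.33 for miR-574-3p, 1.04 for miR-350-3p, 1.19 for miR-674-5p, -1.34 for miR-484 and -2.27 for miR-132-5p. Their edgeR adjusted p was from 0.0766 to 0.0930. Without normal diet 4 they were 1.21, 0.97, 1.03, -1.12 and -1.90 in the same order (edgeR adjusted p from 0.176 to 0.189). Neither fit called any of these 5 miRNAs.

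**Figure D4:**
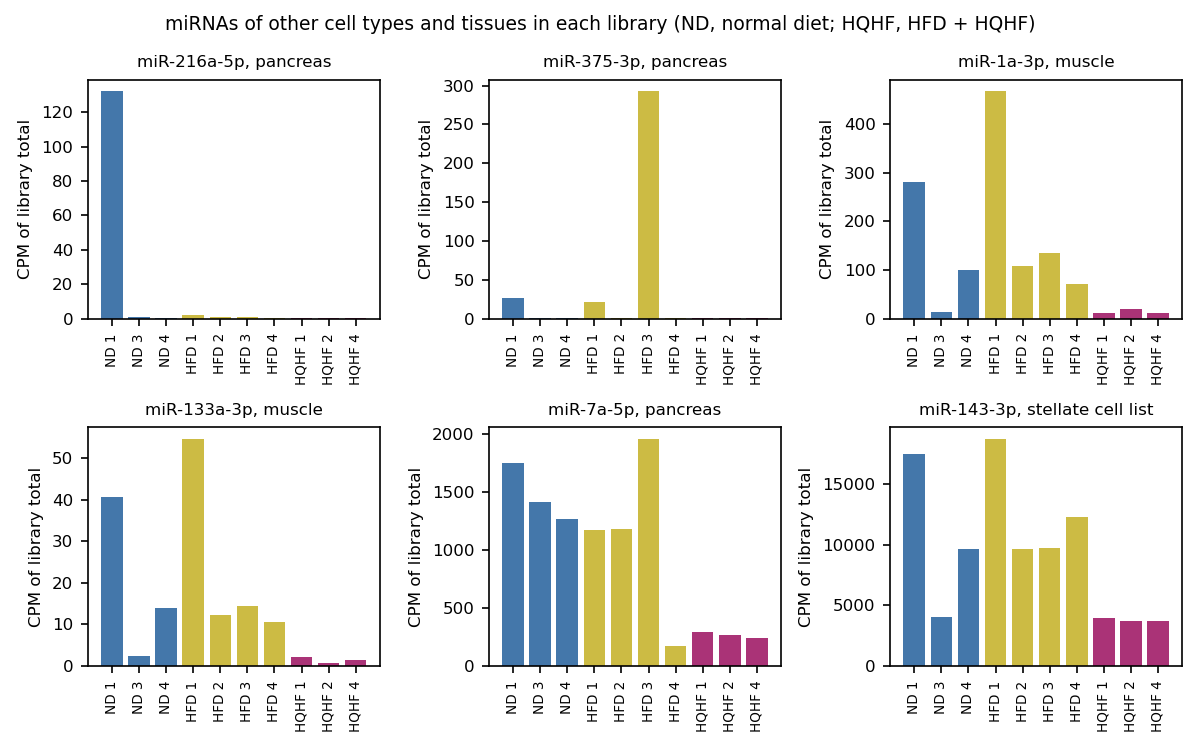
Levels of 6 miRNAs of the pancreas, muscle and stellate cell lists in each of 10 libraries (bars, CPM of the library total, linear axes from 0). ND is normal diet and HQHF is HFD + HQHF. miR-216a-5p stands at 132.1 CPM in normal diet 1 alone, miR-375-3p is highest in HFD 3, and miR-1a-3p, miR-133a-3p and miR-143-3p are lowest or near lowest in the HFD + HQHF libraries.

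Where the HFD libraries stood was read from the same fit. HFD + HQHF against HFD had 81 called miRNAs (20%), 43 higher (10.6%) and 38 lower (9.36%), and HFD against normal diet had 66 (16.3%), 31 higher (7.64%) and 35 lower (8.62%). These comparisons share libraries with each other and with the main one, and their values are given side by side. Of the 5 called miRNAs, miR-350-3p and miR-674-5p overlapped between HFD and HFD + HQHF. miR-350-3p was at 86.5, 100.4, 83.5 and 106 CPM in HFD 1 to 4 (0.98 against normal diet, adjusted p = 0.00608, and 0.00 between HFD + HQHF and HFD, adjusted p = 0.997, edgeR). miR-674-5p was at 33.3, 30.4, 42.3 and 32.3 CPM in HFD, 1.40 above normal diet (adjusted p = 0.00534) with -0.26 between HFD + HQHF and HFD (adjusted p = 0.317, edgeR).

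The level of miR-574-3p in HFD was between the other groups, at 50.2, 56.2, 78.8 and 54.7 CPM. It was 0.71 above normal diet (edgeR adjusted p = 0.0362) and HFD + HQHF was 0.53 above HFD (adjusted p = 0.0625). miR-484 was at 5.83, 5.15, 5.25 and 4.36 CPM in HFD, -1.001 against normal diet (adjusted p = 0.0305), and HFD + HQHF was at -0.38 against HFD (adjusted p = 0.262, edgeR). miR-132-5p was different from these: HFD, at 5.96, 2.62, 3.98 and 2.95 CPM, overlapped normal diet, and HFD + HQHF was at a log2 fold change of -1.998 against HFD (edgeR adjusted p = 0.0169). For this miRNA the treated libraries were below all other libraries in the fit.

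For 30 of the 406 miRNAs (7.39%) every HFD library was above all 6 libraries of the main comparison, and for 30 (7.39%) every HFD library was below. miR-34a-5p was at 2279, 2653, 1847 and 3561 CPM in HFD, above all treated and normal diet libraries. It rose by 2.21 ± 0.28 from normal diet to HFD (edgeR adjusted p = 0.00534) and was at -1.47 ± 0.27 in HFD + HQHF against HFD (adjusted p = 0.0144). miR-223-3p, at 1300 to 2485 CPM in HFD, had values of 1.58 ± 0.22 and -0.96 ± 0.22 (adjusted p = 0.00534 and 0.0218, edgeR). Both therefore lay highest in HFD and lowest with normal diet, with the treated libraries between them. miR-27a-3p, which targets genes of fat cell formation, had the same order at 876 to 1141 CPM in HFD, but HFD + HQHF against HFD was not past the test (-0.45, adjusted p = 0.0631, edgeR).

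miR-192-3p had the opposite pattern, at 134 to 226 CPM in HFD. It fell by 0.96 from normal diet to HFD (edgeR adjusted p = 0.0125) and was 1.64 ± 0.18 higher in HFD + HQHF than in HFD (adjusted p = 0.00300), so the treated libraries were above normal diet and normal diet above HFD. miR-101b-3p, encoded within Rcl1, was at 9476 to 14928 CPM in HFD, below all libraries of the main comparison, where the groups did not overlap either, at 25385 to 28441 against 21712 to 25123 CPM (0.22, adjusted p = 0.411, edgeR). miR-29c-3p was at 7631 to 10553 CPM in HFD, and HFD + HQHF was 1.04 above HFD (adjusted p = 0.00430, edgeR). Each of these 3 was lowest in HFD.

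In another 39 miRNAs (9.61%) the HFD + HQHF libraries were above all normal diet and HFD libraries, and in 28 (6.9%) below. miR-33-5p belongs to the first, since HFD was at 14.6, 20.6, 9.16 and 20.2 CPM, level with normal diet (0.04, edgeR adjusted p = 0.923) and 1.16 ± 0.27 below HFD + HQHF (adjusted p = 0.0218). miR-30c-5p had the same order, with HFD at 3465 to 4607 CPM and HFD + HQHF 0.70 above HFD (adjusted p = 0.0176, edgeR). miR-26a-5p did not, as HFD, at 7573 to 9400 CPM, covered the range of the treated libraries (-0.61 against normal diet, adjusted p = 0.0125, edgeR).

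**Figure D5:**
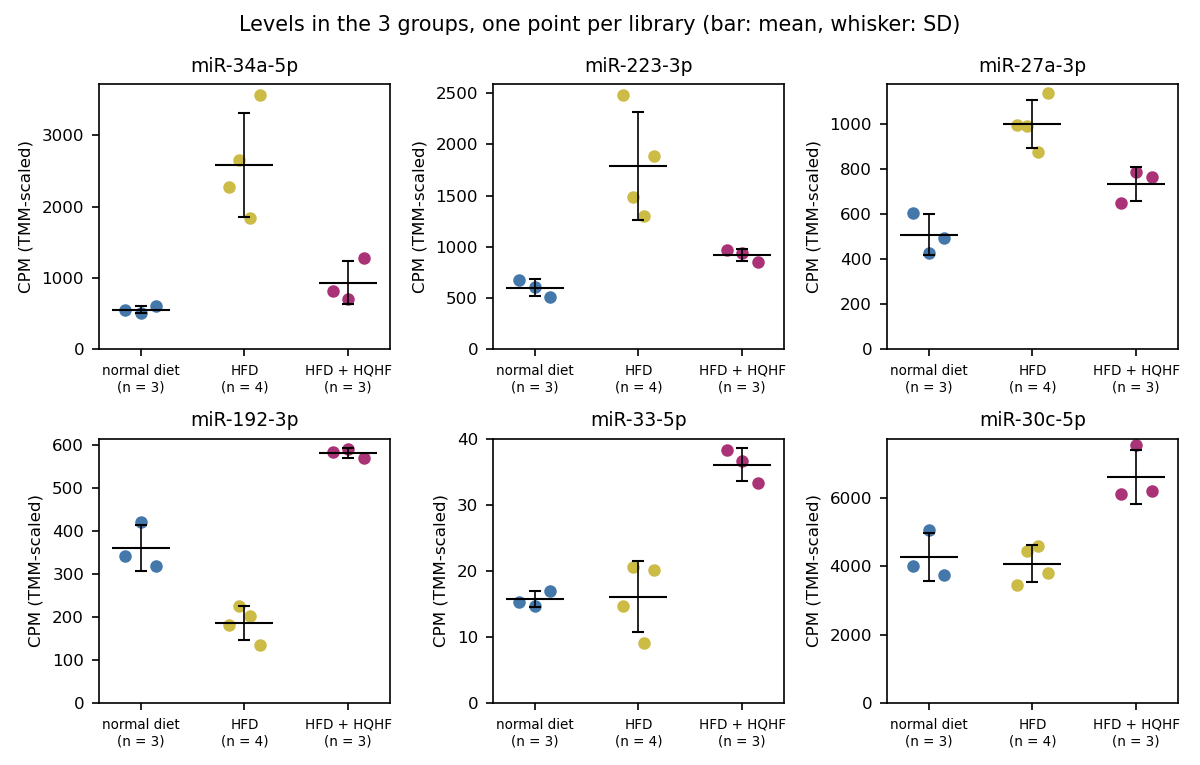
Levels in CPM on TMM-scaled libraries (y axis, linear from 0) of 6 miRNAs in 3 normal diet, 4 HFD and 3 HFD + HQHF libraries. Points are libraries, long bars are means and whiskers are SD; miR-34a-5p, miR-223-3p and miR-27a-3p are highest in HFD, miR-192-3p is lowest in HFD, and miR-33-5p and miR-30c-5p are highest in HFD + HQHF.

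miRNAs that share a seed can act on the same targets, so members were grouped by seed. The matched miRNAs had 278 seeds, of which 15 had at least 3 tested members. In 7 of these 15 all members had the same sign, 4 above 0 and 3 below. The seed ACAUUCA of the miR-181 family, printed above, had 4 members from -1.84 to -0.88, of which 2 had an adjusted p under 0.1. The seed AGCACCA of miR-29 had 3 members above 0, and the seed UAUACAA, on the 3p arms of let-7 hairpins, had 5 members above 0 (median 0.53), 2 of them with identical counts. The seed AUCAGGG of miR-465 also had 3 members above 0, but they hold identical counts, so their sign is the same by construction. The main let-7 seed GAGGUAG had 8 of 9 members below 0.

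Arms of the same hairpin come from the same transcript. In the test were 117 pairs of arms whose names differ only in 5p and 3p, with miR-122 left out. Arms with a hairpin number in the name, such as let-7f-1-3p, were not paired. miR-199a-3p and miR-199b-3p hold identical counts, as do miR-299a-5p and miR-299b-5p, so these pairs are not independent. The arms had the same sign in 70 and opposite signs in 47. Among 31 pairs with an arm at an adjusted p under 0.1, 18 had the same sign and 13 opposite signs. For miR-674 the 3p arm was at 1.00 beside the 5p arm at 1.15, and for miR-132 the 3p arm was at -0.99 beside the 5p arm at -2.23. In miR-350 the 5p arm, a rare one with a mean of 1.45 CPM in normal diet, was at -0.40 while the 3p arm rose. In miR-361 both arms had an adjusted p under 0.1, with -0.55 for 5p and 0.58 for 3p (edgeR adjusted p = 0.0837 and 0.0743). In miR-99a they were at -1.07 and 0.71 (adjusted p = 0.0743 and 0.103, edgeR).

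The long RNA libraries of the same 6 mice, with the 4 HFD mice in the fit, gave the levels of the genes that host the miRNAs. Of 13832 genes tested by edgeR, 0 passed (0%), with 1008 at an unadjusted p under 0.05 (7.29%), a lowest adjusted p of 0.228 and 72 calls by DESeq2, 46 higher and 26 lower. Among 54 host genes with a value, 25 were above 0 and 29 below, and 7 had an unadjusted p under 0.05. Fam114a1, around miR-574, was at 27.9, 26.7 and 25.7 CPM with HFD + HQHF and 24.7, 17.8 and 14.9 CPM with normal diet, without overlap (0.48 ± 0.17, edgeR adjusted p = 0.643). Cep170, around miR-350, was at 12.3, 12.2 and 12.03 CPM against 15.02, 16.7 and 13.3 CPM (-0.30 ± 0.17, adjusted p = 0.725, edgeR), so the host and its miRNA had opposite signs.

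Srebf2, a regulator of cholesterol synthesis around miR-33, was at 23.6, 21.02 and 40.5 CPM against 27.996, 36.1 and 48.9 CPM, with overlap (-0.41 ± 0.33, edgeR adjusted p = 0.815). Ppargc1b, a coactivator of mitochondrial genes around miR-378a, was at 21.3, 20.8 and 51.2 CPM against 8.01, 17.2 and 14.6 CPM, where HFD + HQHF 4 was far above the others (1.23 ± 0.38, adjusted p = 0.621, edgeR). Clcn5, a chloride transporter around the miR-532 cluster, was at 5.83, 6.57 and 8.11 CPM against 11.3, 11.1 and 9.58 CPM (-0.64 ± 0.19, adjusted p = 0.601, edgeR), while miR-532-5p and miR-532-3p were at 0.57 and 0.93. Aopep, around the miR-23b cluster, was at 0.50 (adjusted p = 0.621, edgeR). Vmp1, around miR-21a, was at 79.2, 90.7 and 81.1 CPM against 106, 115 and 127 CPM (-0.47 ± 0.19, adjusted p = 0.659, edgeR). Rcl1, around miR-101b, was at 123, 119 and 123 CPM against 103, 104 and 88.4 CPM (0.31 ± 0.17, adjusted p = 0.723, edgeR). Vmp1 and Rcl1 had the sign of their miRNA, unlike Cep170, Srebf2 and Clcn5. The hosts of miR-574 and miR-350 were added to the list of hosts after the values of these miRNAs were seen.

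The HFD + HQHF libraries were more alike than the others. The median over miRNAs of the SD of log2 CPM was 0.213 in HFD + HQHF, 0.296 in normal diet and 0.442 in HFD, and the SD in HFD + HQHF was below that in normal diet for 247 of the 406 miRNAs (60.8%). The median difference between any pair of HFD + HQHF libraries was 0.229 to 0.268 on the log2 scale, against 0.323 to 0.358 between normal diet libraries and 0.434 to 0.697 across the groups. Normal diet 4 was the furthest from the treated libraries in each pairing, at 0.623 to 0.697.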

How the data were processed

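Small RNA and long RNA counts of the same mouse livers were used. The authors deposited whole-number counts per mature miRNA and per gene, without normalization. Per the submitters' processing notes, HISAT2, RSEM and GRCm39 were used. Their versions, the miRNA reference and the counting step are not stated there or in the labels. Members, lists and tests were chosen with earlier results of these data known.

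Counts of 10 libraries (3 normal diet, 4 HFD, 3 HFD + HQHF) were filtered with filterByExpr, scaled by TMM (factors 0.707 to 1.61 for small RNA) and fitted in R 4.3.3 with edgeR 4.0.16 (estimateDisp, robust glmQLFit, glmQLFTest), which was tested on simulated data first. DESeq2 1.42.0 was an alternative. Log2 CPM used a prior count of 2. Other settings were RLE, library totals with or without miR-122-5p, other filters, other sets of libraries, a replicate block, an adjusted p under 0.1 and a 2-fold minimum. A fit without HFD 3 was added after seeing the data. Totals limit precision for miRNAs with few counts.

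Named miRNAs were called ones with no overlap and at least 10 CPM in the higher group, the 5 smallest p in a direction with fewer than 5 calls, the 10 most abundant, the 2 smallest p of each list, and always miR-122-5p, 34a-5p, 21a-5p, 33-5p, 155-5p, 223-3p, 192-5p and 802-5p, with their hosts. Others were chosen after their values were seen: miR-143-3p, 103-3p, 378a-3p, 148a-3p, 122-3p, 92a-3p, 29b-3p and 29c-3p, the second arms of hairpins and the seed groups shown.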

Additional observations from a re-analysis of the deposited data

Results flagged for a closer look

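In the HFD group, the only one with 4 libraries, 8 of the 60 named miRNAs had 1 library far from the other 3 by Dixon's 95% criterion, the gap to the nearest library over the range. For independent groups of normally distributed values the criterion flags about 1 in 20. The 60 miRNAs were read in the same 4 libraries on the linear CPM scale, so 8 of 60 cannot be compared with that rate. HFD 3 was the highest for miR-375-3p at 206.4 CPM (next 17.7), miR-137-3p at 185 CPM (next 90.5), miR-532-5p at 199.8 CPM (next 167) and miR-136-5p at 21.5 CPM (next 3.45). HFD 1 was the highest for miR-1a-3p at 397 CPM (next 104) and miR-133a-3p at 46.4 CPM (next 11.9). HFD 4 was the highest for miR-181d-5p at 4.85 CPM (next 2.52), and HFD 2 was the lowest for miR-181a-5p at 29.1 CPM (next 39.4). The HFD libraries enter the estimate of the spread in the main comparison, and without HFD 3 it called 20 miRNAs higher and 22 lower in HFD + HQHF.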

How the results depend on the processing

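The 5 called miRNAs kept their direction in every alternative that gave them a value. The counts, 3 higher and 2 lower by edgeR, were the same with RLE scaling. They were 9 and 4 with library totals without miR-122-5p, 26 and 29 with DESeq2, 22 and 20 with a minimum of 10 CPM in 3 libraries (236 tested), 60 and 52 with only the 6 libraries (357 tested), 28 and 26 at an adjusted p under 0.1, and 20 and 22 without HFD 3, added after seeing the data. In each of these all of the 5 with a value stayed called. The counts were 0 and 0 with library totals, with no filter (1177 tested), with all 12 libraries and with a 2-fold minimum, and from 0 to 0 without 1 library of either group. The cause was not tested. With library totals the 5 had an edgeR adjusted p of 0.0817 each.

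Replicate numbers were not used as pairs. Deviations of same-numbered libraries had correlations of -0.11 and 0.01 between normal diet and HFD + HQHF. Over all same-numbered libraries of the 3 groups they ran from -0.38 to 0.29. So few pairs cannot exclude a pairing. The replicate block left 0 higher and 0 lower.

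For long RNA 0 genes were called, except 46 higher and 26 lower with DESeq2 and 1 lower with only the 6 libraries. Log2 fold changes turned sign with all 12 libraries for miR-16-5p (0.063), miR-365-3p (0.11), miR-183-5p (0.98), Mrc1 (-0.28), Ift74 (-0.61), Mcm7 (0.025), Nfyc (0.30), Col27a1 (1.21) and Ctdspl (-0.51), with library totals for Col27a1 (0.10), and without 1 library in the ranges of Mrc1 (-0.12 to 0.19), Mcm7 (-0.15 to 0.023), Col27a1 (-0.49 to 0.38) and Ctdspl (-0.10 to 0.22). Fewer than 10 counts per library, as for miR-132-5p after HQHF, limit how closely its fold can be placed.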
